A study of Mus musculus with 6 samples.

Results

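The Notch pathway genes described here are 35 genes of the pathway, taken by name from a table of 37761 mouse genes: the receptors, their ligands, the fringe enzymes that modify the receptors, subunits of the protease that releases the receptor's inner part, the nuclear complex, the target genes and the cytoplasmic modulators. They were measured by RNA sequencing in 6 libraries of wild-type mice. The 3 embryonic libraries hold whole pancreas dissected at e15.5. The 3 adult libraries hold islets of Langerhans of mice 12 weeks old, freed from the organ with collagenase. Tissue, the way it was isolated and age change together, so their contributions cannot be told apart.

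Notch receptors sit in the cell membrane and are activated by ligands of the Delta and Jagged families on a neighbouring cell. Binding lets a metalloprotease and then gamma-secretase cut the receptor, and the freed inner domain enters the nucleus, joins the DNA-binding protein Rbpj and a Mastermind-like coactivator, and switches on repressors of the Hes and Hey families. In the developing pancreas this pathway is known for holding progenitor cells back from the endocrine fate by repressing Neurog3, and it also acts in blood vessels and mural cells.

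Reads assigned to genes numbered between 35059950 and 39713899 in the embryonic libraries and between 41983532 and 47346870 in the islet libraries, so that 1 normalized count was worth about 1 read. Markers of beta cells, 8 genes such as Ins1 and Mafa, summed to between 6313 and 11259.5 normalized counts in the embryonic libraries and to between 3941498 and 4655357 in the islet libraries. Other cells were present on both sides. Mesenchymal markers summed to between 186397 and 207943 in the embryonic libraries and to between 2185 and 5166 in the islets, and acinar markers to between 128287 and 178754 and to between 328920 and 834457, highest in the second islet library at 2.23 times the mean of the other islet libraries. In such bulk tissue, fewer cells of a type and less RNA per cell cannot be told apart. Values are normalized counts as the authors made them, given for the first, the second and the third library of a group and then as mean ± SD with n = 3. Log2 changes are islets minus embryonic pancreas, computed after adding 1 to each value, so that changes of genes with low counts come out too small, and the fold of a single gene is that log2 change turned back into a ratio. "Rose" and "fell" mean higher or lower in the islets at a limma-trend adjusted p under 0.05. No label says that the libraries of a group were made from different animals, and the spread on which the p-values rest may therefore be technical.

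Of the 35 genes, 32 passed the filter of 10 normalized counts in 3 libraries, 12 of them rose, 18 fell and 2, Aph1a and Numb, were not called. Over all 21653 genes tested, 72.8% were called, 36.2% higher and 36.6% lower, and the members' counts are to be read against these shares. The islet libraries did not overlap the embryonic ones for 29 of the 32 members, 11 lying above and 18 below, where 77.1% of all tested genes had no overlap. The median log2 fold change was -0.38 over the members tested and -0.03 over all genes tested. The median size of the change, whatever its direction, was 1.36 on the log2 scale for the members and 0.97 for all genes, and 20 of the 32 members were called with a change of at least 2-fold, against 48.1% of all genes. The members were chosen with earlier results of these data known, so these comparisons cannot show that Notch genes changed more than others. Dlk2, Hes5 and Hes7 were too low to be tested.

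**Figure D1:**
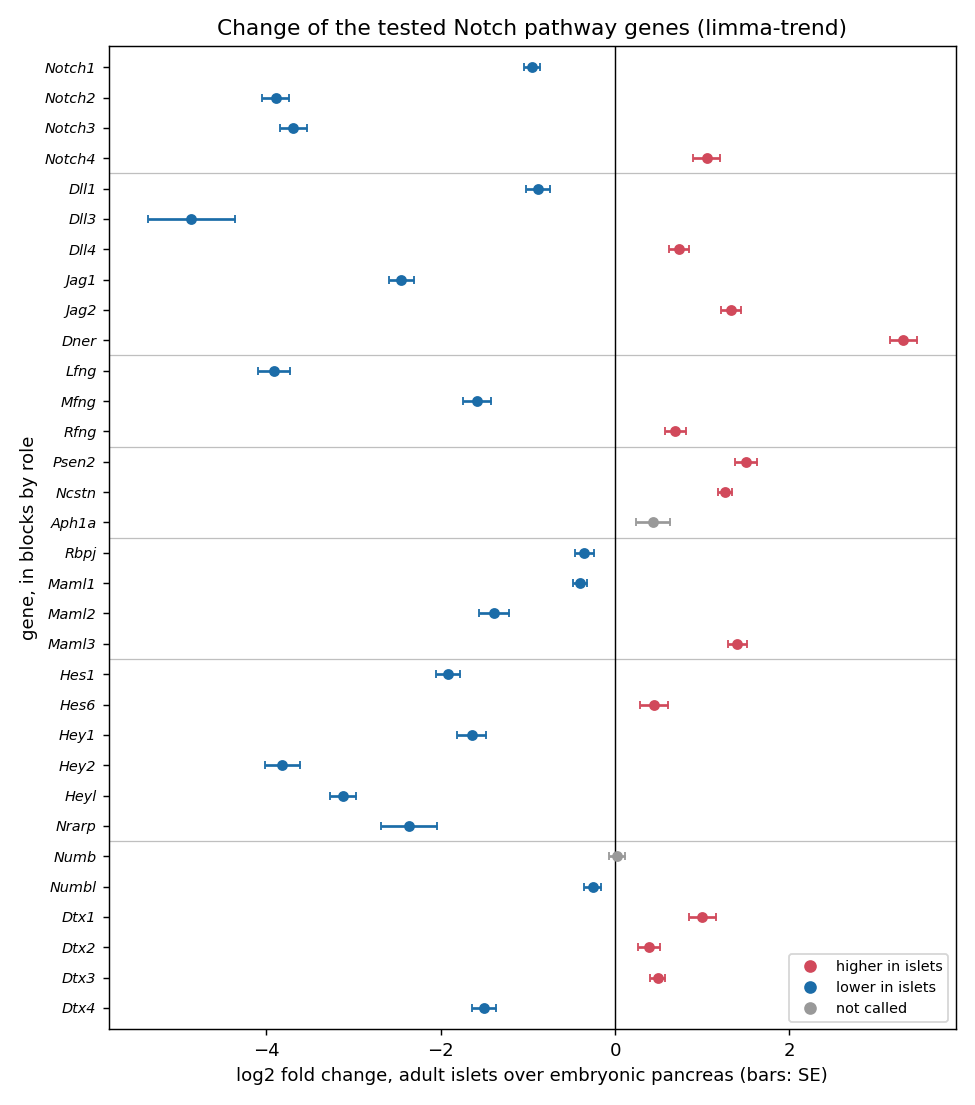
Log2 fold change of each tested Notch pathway gene, adult islets over embryonic pancreas, with its standard error as bars and colour for genes higher, lower or not called by limma-trend. Genes run by role from receptors to modulators. The steepest fall among genes with reads in every library is that of Lfng at -3.91, and the steepest rise is that of Dner at 3.31.

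Among the 4 receptors, 3 fell and Notch4 rose, and the receptor in the lead changed from Notch2 to Notch1. Notch2, a receptor of progenitor and many mesenchymal cells, stood at 7237, 6289.7 and 7751 in the embryonic libraries and at 455, 595 and 394 in the islets. The gene (ENSMUSG00000027878.11) lies on the plus strand of chromosome 3, 98013527 to 98150361, in GENCODE M21 on GRCm38, the annotation used for all gene positions here. Its mean went from 7092 ± 741 to 481 ± 103, and the fitted change was 14.9-fold lower (log2 change -3.89 ± 0.15 SE, adjusted p = 6.8e-08 by limma-trend). Every islet library lay far below every embryonic one, and the second islet library was the highest of its group at 1.40 times the mean of the other islet libraries, in the same library in which acinar markers were highest; the part of acinar cells was not tested. Notch3, a receptor best known from pericytes and smooth muscle, stood at 1951, 1613 and 2229.8 and at 172, 142 and 131, and fell from 1931 ± 309 to 148 ± 21.5 (log2 change -3.69 ± 0.15 SE, adjusted p = 9.7e-08 by limma-trend). The 8 other markers of pericytes and smooth muscle summed to between 10516 and 13641 in the embryonic libraries and to between 3131 and 4038 in the islets, and their part in the fall was not tested. Of these 8, Acta2, Myh11, Cnn1, Pdgfrb, Cspg4 and Des fell, whereas Rgs5 and Tagln were not called.

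Notch1, the receptor best known from T cells and blood vessels, stood at 3724, 4108 and 4577 and at 2175, 2120.0 and 2118. It fell by 0.95 on the log2 scale, the smallest fall of the 3 (SE 0.09, adjusted p = 1.8e-05 by limma-trend). Its islet libraries lay close together, at 2138 ± 32.3, all below the embryonic libraries. Notch4, a receptor known from endothelium, moved the other way, from 294, 256 and 286 to 656, 637 and 462 (log2 change 1.05 ± 0.16 SE, adjusted p = 0.00027 by limma-trend). All 3 islet libraries lay above all embryonic ones, the third islet library being the lowest of its group. Of 10 endothelial markers, Flt1 rose, Kdr, Tek, Tie1 and Cldn5 fell and the others were not called, and their sum went from between 17063 and 18421 to between 12447 and 15851. The endothelial sum was thus lower in every islet library, while Notch4 was higher; the part of endothelial cells in the rise of Notch4 was not tested.

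Levels can be compared between genes once they are divided by exon length, here the union of a gene's annotated exons, and the comparison depends on the length taken. In normalized counts per kb of exon, the embryonic order was Notch2 at 658 ± 68.7, Notch1 at 291 ± 30.03, Notch3 at 239 ± 38.2 and Notch4 at 34.6 ± 2.51, and the ranges of Notch1 and Notch3, which are neighbours in this order, overlapped. That overlap rests on union lengths of 14.232 kb for Notch1 and 8.089 kb for Notch3. Divided by the longest transcripts, of 9488 and 8016 bases, Notch1 would lie above Notch3 in every embryonic library, without overlap. In the islets Notch1 led at 150.2 ± 2.27, followed by Notch4 at 72.6 ± 13.2, Notch2 at 44.6 ± 9.57 and Notch3 at 18.3 ± 2.66, with no overlap between neighbours. The sum of the 4 receptors per kb was 1222 ± 125 in the embryonic organ and 286 ± 23.3 in the islets, 4.28-fold lower. As a share of that sum within each library, which does not depend on the scaling between libraries, Notch2 went from 53.8 ± 1.40% to 15.54 ± 2.43% and Notch1 from 23.9 ± 2.28% to 52.8 ± 4.16%. Notch4 went from 2.84 ± 0.195% to 25.3 ± 2.73% and Notch3 from 19.5 ± 1.22% to 6.42 ± 0.681%. Each of the 4 shares was separated between groups, with the smallest p that an exact permutation test of 3 against 3 libraries can give (two-sided p = 0.1, adjusted p = 0.118 over the 26 shares tested in all families).

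**Figure D2:**
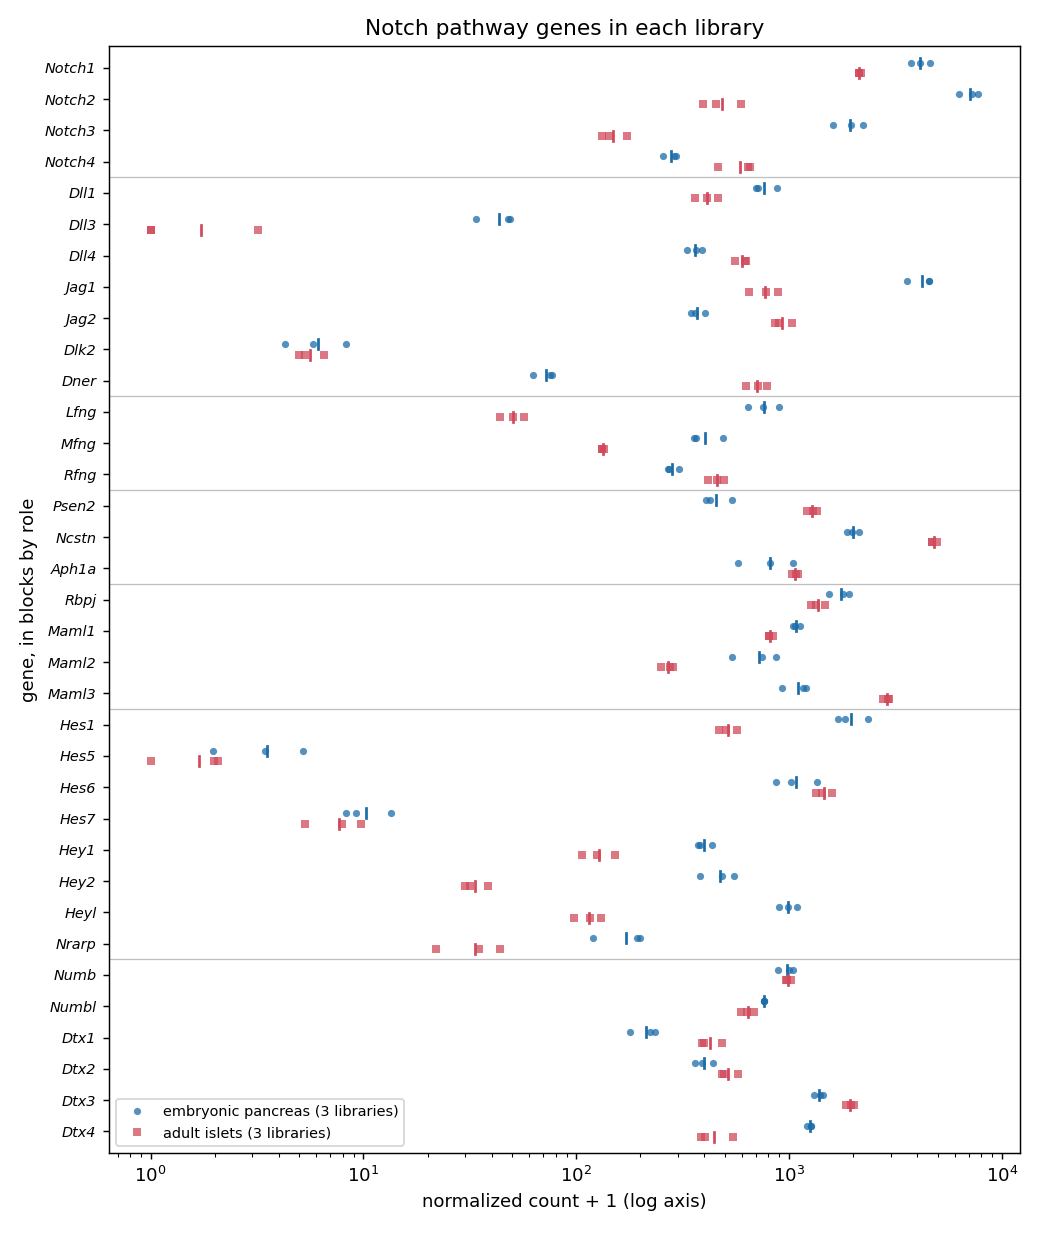
Normalized count + 1 of every member in each library on a log axis, with circles for the 3 embryonic libraries, squares for the 3 islet libraries and a line at each group's mean. The groups are widest apart for Notch2, Notch3, Dner, Lfng, Hey2 and Heyl among the genes with reads in every library, and among the tested genes they overlap for Numb, Aph1a and Hes6.

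The 7 ligand genes went in both directions: Jag2, Dll4 and Dner rose, Jag1, Dll1 and Dll3 fell, and Dlk2 was too low to test. Jag1, the Jagged ligand of many developing epithelia and vessels, stood at 4524, 3584 and 4535 in the embryonic libraries and at 889, 781 and 645 in the islets. The gene (ENSMUSG00000027276.7) lies on the minus strand of chromosome 2, 137081456 to 137116644. It fell 5.47-fold (log2 change -2.45 ± 0.14 SE, adjusted p = 5.9e-07 by limma-trend), and the lowest embryonic library, the second, was still far above the highest islet library. Its relative Jag2 stood at 344, 399.6 and 361 and rose to 861, 899 and 1029 (log2 change 1.33 ± 0.11 SE, adjusted p = 7.5e-06 by limma-trend), with no overlap. The Jagged genes therefore changed in opposite directions, and per kb they were at 723 ± 93.7 and 52.9 ± 4.09 in the embryonic pancreas but at 132 ± 21.0 and 134 ± 12.6 in the islets, where their ranges overlapped. The islet overlap rests on union lengths of 5.827 kb for Jag1 and 6.965 kb for Jag2. Divided by the longest transcripts, of 5612 and 5106 bases, Jag2 would lie above Jag1 in the islets, without overlap.

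Among the Delta-like ligands, Dll1, the ligand tied to early endocrine progenitors, fell from 697, 874 and 713 to 465, 412 and 358 (log2 change -0.89 ± 0.14 SE, adjusted p = 0.00037 by limma-trend). Dll4, the ligand of endothelial tip cells, rose from 364, 387 and 331 to 628, 553 and 617 (log2 change 0.73 ± 0.11 SE, adjusted p = 0.00037 by limma-trend). Neither overlapped between the groups. Of the exon length of Dll1, 20.5% is shared with another annotated gene, so its reads are less certain. Dll3, a ligand that acts mainly inside its own cell, was low in the embryonic pancreas, at 32.7, 48.0 and 46.6, and had 2 reads in the islets, both in the first library. The pooled ratio of 137 against 2 reads, scaled for depth, was 60.6 with a 95% counting interval from 16.5 to 505, and Dll3 passed the filter only through the embryonic libraries. The 5 markers of endocrine progenitors moved mostly with it: Neurog3, Pax4, Neurod2 and Amotl2 fell, Btbd17 rose and Neurod2 was at 0 in every islet library; their part in the result was not tested.

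The 5 Delta-like and Jagged ligands form the family named for the Notch-binding DSL domain. They summed per kb to 1065 ± 59.0 in the embryonic organ and to 519 ± 26.6 in the islets, 2.05-fold lower. Jag1 made up 67.7 ± 5.21% of this sum in the embryonic libraries and 25.4 ± 3.04% in the islet libraries (exact permutation p = 0.1, adjusted p = 0.118). The shares of Dll4 and Jag2 went from 8.83 ± 1.15% to 29.97 ± 1.70% and from 4.99 ± 0.672% to 25.8 ± 3.44%. The share of Dll1 was 17.1 ± 3.23% and 18.7 ± 1.66%, with overlapping libraries (exact permutation p = 0.4, adjusted p = 0.416), in a design that cannot go below p = 0.1. The islet pool was spread over 4 ligands, where the embryonic pool was mostly Jag1.

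**Figure D3:**
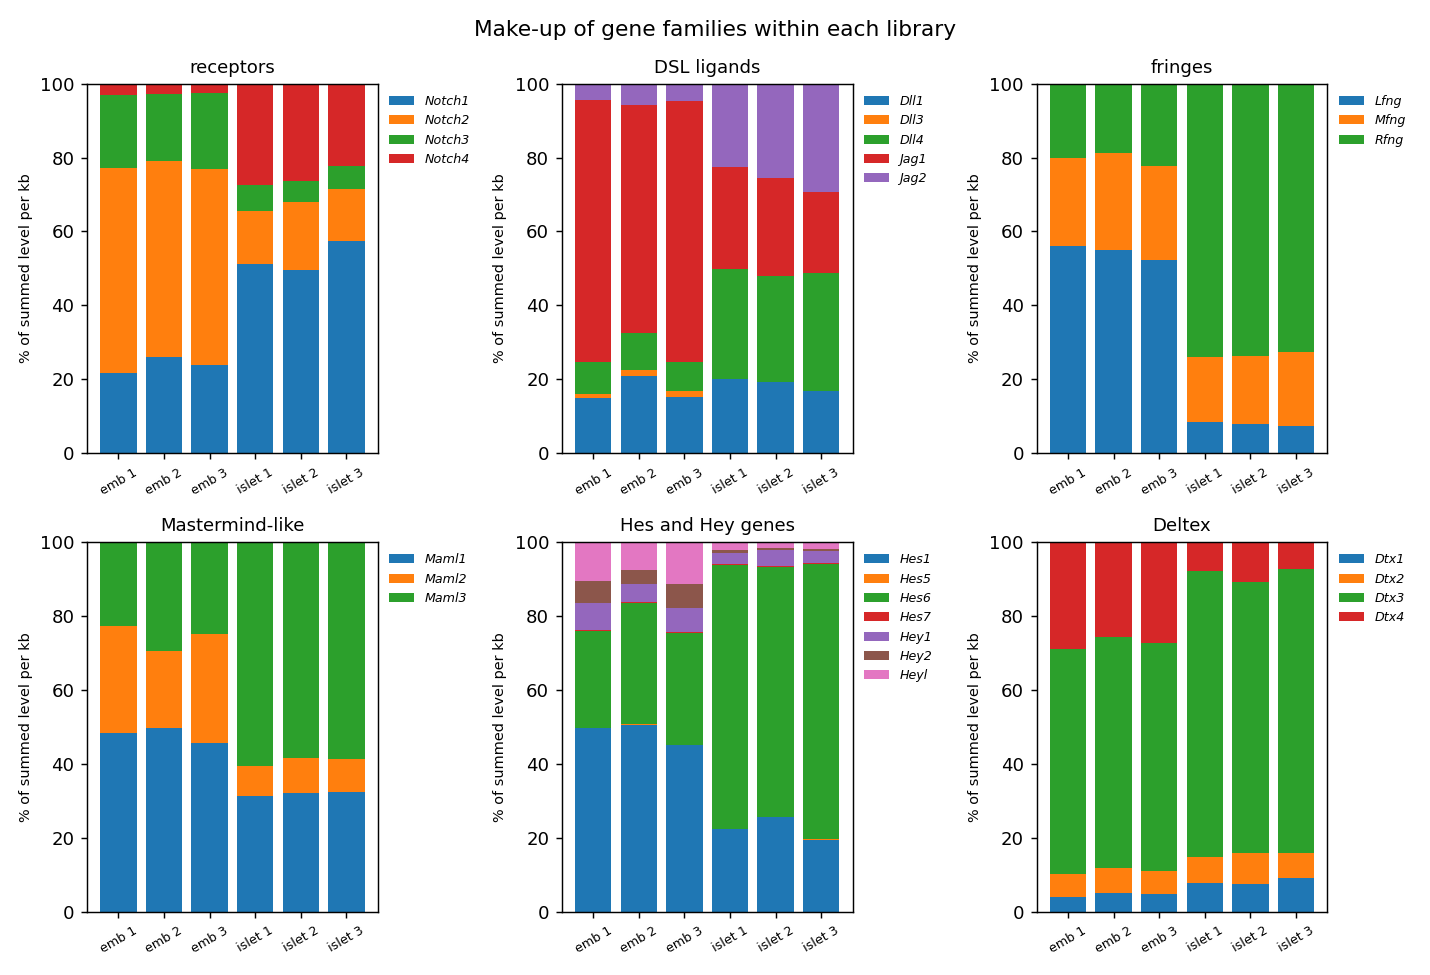
Shares of each gene within its family in each library, in percent of the family's summed normalized counts per kb of exon, as stacked bars for the 3 embryonic and 3 islet libraries. Notch2, Jag1, Lfng and Hes1 hold 53.8, 67.7, 54.4 and 48.4% of their families in the embryonic organ and 15.54, 25.4, 7.91 and 22.5% in the islets.

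Dner, a neuronal membrane protein proposed as a ligand that lacks the DSL domain, had the steepest rise of all members. It stood at 61.5, 76.2 and 74.4 in the embryonic libraries and at 709.6, 628 and 789.7 in the islets, 9.90-fold higher (log2 change 3.31 ± 0.16 SE, adjusted p = 1.9e-07 by limma-trend). All islet libraries were high. The gene (ENSMUSG00000036766.12) spans 84369839 to 84696221 on the minus strand of chromosome 1. Of 6 neural and Schwann cell markers, Elavl4 and Tubb3 rose and Sox10, S100b, Fabp7 and Elavl3 fell, while all 8 beta cell and all 6 alpha cell markers rose; the part of any of these cells in the rise of Dner was not tested. Per kb, Dner in the islets, at 148 ± 16.9, overlapped the ranges of Dll4, Jag2 and Jag1. Divided by the longest transcripts, Dner would overlap only Jag2 among these and lie above Dll4 and Jag1. Dlk2 rested on 16 reads in all embryonic libraries and 13 in all islet libraries, a ratio of 1.09 with a 95% counting interval from 0.491 to 2.46, so no difference was detectable at this depth.

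The fringe enzymes add a sugar to the receptors and so shift which ligands activate them. Lfng and Mfng fell and Rfng rose. Lfng stood at 752, 894 and 642 in the embryonic libraries and at 56.0, 49.6 and 42.9 in the islets, 15.1-fold lower (log2 change -3.91 ± 0.18 SE, adjusted p = 1.6e-07 by limma-trend). Mfng fell from 364, 486 and 355 to 134, 131 and 131 (log2 change -1.58 ± 0.16 SE, adjusted p = 2.3e-05 by limma-trend), and Rfng rose from 269, 304 and 271 to 492, 457 and 416 (log2 change 0.69 ± 0.12 SE, adjusted p = 0.00084 by limma-trend). None of the 3 overlapped between groups. Lfng (ENSMUSG00000029570.5) lies on the plus strand of chromosome 5, 140607320 to 140615545. Lfng was the leading fringe per kb in the embryonic pancreas, at 54.4 ± 1.90% of the fringe sum, and the last in the islets, at 7.91 ± 0.467%. Rfng went from 20.4 ± 1.75% to 73.4 ± 0.729% and Mfng from 25.2 ± 1.24% to 18.7 ± 1.19% (exact permutation p = 0.1 and adjusted p = 0.118 for each).

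Gamma-secretase genes were higher in the islets or not called. Psen2, a catalytic subunit, rose from 422, 535 and 406 to 1347, 1288 and 1214 (log2 change 1.51 ± 0.12 SE, adjusted p = 5.9e-06 by limma-trend). Ncstn, the subunit nicastrin that receives the substrate, rose from 2140.1, 1973 and 1878 to 4683, 4687 and 4941 (log2 change 1.26 ± 0.08 SE, adjusted p = 1.3e-06 by limma-trend) and was the most abundant member per kb in the islets, at 1200.1 ± 37.2. Aph1a, a scaffold subunit, was at 815, 1043 and 574 and at 1096, 1075 and 1027, and the second embryonic library lay inside the islet range. It was not called (log2 change 0.44 ± 0.19 SE, adjusted p = 0.066 by limma-trend), but it was called without the second embryonic library (log2 fold change 0.64, limma-trend adjusted p = 0.0071) and with upper quartile scaling (0.55, limma-trend adjusted p = 0.018), the adjusted p over all settings lying between 0.0071 and 0.30. Of further subunit genes, which are not among the 35, Psenen was higher in the islets (log2 fold change 0.69), and Aph1b and Aph1c were not called. Aph1b was called higher with upper quartile scaling (0.32, limma-trend adjusted p = 0.011) and turned negative, uncalled, with scaling that left out the 20 most abundant genes (-0.028).

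In the nuclear complex Rbpj, Maml1 and Maml2 fell and Maml3 rose, so that the Mastermind-like coactivators parted. Rbpj, the DNA-binding partner of the freed receptor, stood at 1909.5, 1783 and 1535 and at 1336, 1268 and 1477. It fell by 0.35 on the log2 scale (SE 0.11, adjusted p = 0.015 by limma-trend), a call lost with upper quartile scaling (adjusted p = 0.058 from limma-trend) and without the first embryonic, the first islet or the second islet library (limma-trend adjusted p = 0.060, 0.051 and 0.068). Over all settings its adjusted p from limma-trend, edgeR or DESeq2 lay between 0.00080 and 0.068. The groups did not overlap, but the third islet library and the third embryonic library lay close together. Maml1 fell by 0.40 on the log2 scale, from 1044, 1065 and 1121 to 807, 800.2 and 839 (SE 0.08, adjusted p = 0.0023 by limma-trend), and Maml2 fell by 1.39, from 748, 538 and 868 to 248, 285 and 275 (SE 0.18, adjusted p = 9.9e-05 by limma-trend). Maml3 rose from 928, 1202 and 1156 to 2958, 2769 and 2900.3 (log2 change 1.40 ± 0.11 SE, adjusted p = 4.2e-06 by limma-trend). Within the family, Maml1 had 47.8 ± 2.01% of the sum per kb in the embryonic organ and Maml3 had 59.3 ± 1.13% in the islets, up from 25.6 ± 3.49%, while the sum itself was 408 ± 31.6 and 463 ± 9.42.

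Genes listed as targets mostly fell, Hes6 being the exception. Of these 8, Hes1, Hey1, Hey2, Heyl and Nrarp fell, Hes6 rose, and Hes5 and Hes7 were too low to test. Hes6 is listed here with its gene family, and whether Notch controls it in these tissues was not tested. Hes1, the repressor through which Notch restrains Neurog3, stood at 1836, 2348 and 1700.0 in the embryonic libraries and at 506, 569 and 466 in the islets (log2 change -1.92 ± 0.14 SE, adjusted p = 2.4e-06 by limma-trend). It (ENSMUSG00000022528.8) lies on the plus strand of chromosome 16, 30064384 to 30067796. Its islet libraries were all low, yet its islet level of 252 ± 25.6 per kb remained above that of each Notch receptor. Hey2, a transcriptional repressor known from vascular and cardiac development, stood at 484, 381 and 550.3 and at 37.3, 30.7 and 29.0, 14.1-fold lower (log2 change -3.82 ± 0.20 SE, adjusted p = 3.9e-07 by limma-trend). Heyl, known as a Notch3 target in mural cells, fell from 988, 895 and 1090.0 to 129.6, 96.2 and 115 (log2 change -3.12 ± 0.15 SE, adjusted p = 2e-07 by limma-trend). Hey1 fell from 432, 373 and 382 to 105, 151 and 124 (log2 change -1.64 ± 0.17 SE, adjusted p = 2.5e-05 by limma-trend). No embryonic library of these 4 genes came within reach of an islet library, and the smallest fall of the 3 Hey genes was that of Hey1. The pericyte and mesenchyme markers given above were also lower in the islets, and their part in the falls of Hey2 and Heyl was not tested.

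Nrarp, a target whose small protein damps Notch signalling, fell from 119, 198 and 191 to 34.1, 20.8 and 42.9 (log2 change -2.37 ± 0.32 SE, adjusted p = 0.00016 by limma-trend). The first embryonic library was the lowest of its group but lay above all islet libraries. Because 79.4% of its exon length is shared with the predicted gene Gm38287 and the labels do not state that the libraries kept strand, reads of the pair cannot be told apart. Hes6, a relative of Hes1 that acts against it and is found in cells entering differentiation, was at 863, 1353 and 1018 in the embryonic libraries and at 1432, 1339 and 1582 in the islets. It rose by little (log2 change 0.45 ± 0.16 SE, adjusted p = 0.029 by limma-trend), and its second embryonic library lay above the lowest islet library. This call was lost with quantile normalization (limma-trend adjusted p = 0.053), with scaling that left out the 20 most abundant genes of each group (limma-trend adjusted p = 0.17), and without the first or the third embryonic or the first or the third islet library (limma-trend adjusted p between 0.064 and 0.10). The lowest adjusted p of any setting, edgeR and DESeq2 included, was 0.0017. Hes5 rested on 8 embryonic and 2 islet reads (ratio 3.54, 95% counting interval 0.706 to 34.2) and Hes7 on 30 and 19 reads (ratio 1.40, 95% counting interval 0.761 to 2.63), and both intervals include 1.

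Summed per kb, the 7 Hes and Hey genes went from 1984 ± 257 to 1127 ± 41.0, and Hes1 from 48.4 ± 2.96% to 22.5 ± 3.01% of that sum while Hes6 went from 29.8 ± 3.32% to 71.1 ± 3.50% (exact permutation p = 0.1 and adjusted p = 0.118 for both). The shift of Hes1 was 25.9 percentage points downward (-25.9), and -16.8 points when counts were not divided by length. Unlike the call on the level of Hes6, this exchange of shares was seen in every library, with Hes1 above Hes6 in all 3 embryonic libraries and below it in all 3 islet libraries.

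Promoter sequence, the 250 bases before a start site in RefSeq's table for GRCm38.p6, was searched for TGGGAA or its complement TTCCCA, the core of the site that Rbpj binds, and for CACGTG, an E-box bound by Hey and other proteins of this class. A window was found for 29 of the 35 genes and none for Mfng, Hes1, Hey1, Heyl, Dtx3 and Dtx4. The Rbpj core was present in 9 of these 29 genes, 3 of 11 that rose and 4 of 13 that fell among them, against 24.1% of all 27025 genes in the table (21.6% of 32851 windows). CACGTG was present in 3 of the 29, Psen2, Nrarp and Lfng, against 6.86% of all genes (6.02% of windows). Only 4 windows are shown: that of Lfng, which fell steeply and holds both motifs, those of the targets Hey2 and Nrarp, which fell and hold 1 motif each, and that of Hes6, the Hes gene that rose. Psen2, Maml3 and Dtx2, which rose and hold the Rbpj core, are not shown. Psen2, like Lfng, holds both motifs in the same window. The windows lie at chr5:140607091-140607340 on the plus strand for Lfng, chr10:30842784-30843033 on the minus strand for Hey2, chr2:25180508-25180757 on the plus strand for Nrarp and chr1:91414039-91414288 on the minus strand for Hes6, each printed 5′ to 3′ with matches in capitals.
Lfng promoter: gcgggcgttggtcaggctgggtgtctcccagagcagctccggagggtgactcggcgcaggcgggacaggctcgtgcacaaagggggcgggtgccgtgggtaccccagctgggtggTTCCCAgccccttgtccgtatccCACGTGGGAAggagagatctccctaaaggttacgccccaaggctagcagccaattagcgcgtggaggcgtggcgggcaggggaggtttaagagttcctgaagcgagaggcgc
Hey2 promoter: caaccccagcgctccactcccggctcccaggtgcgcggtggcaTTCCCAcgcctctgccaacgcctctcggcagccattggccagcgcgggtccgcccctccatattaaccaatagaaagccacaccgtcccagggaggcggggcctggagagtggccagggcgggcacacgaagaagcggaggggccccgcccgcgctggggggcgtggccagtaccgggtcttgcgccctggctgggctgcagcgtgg
Nrarp promoter: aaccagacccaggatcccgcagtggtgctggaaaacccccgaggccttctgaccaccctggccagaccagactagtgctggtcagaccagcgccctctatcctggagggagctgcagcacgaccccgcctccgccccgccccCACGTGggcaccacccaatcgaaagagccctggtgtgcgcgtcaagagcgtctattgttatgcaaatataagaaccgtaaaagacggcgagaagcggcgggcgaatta
Hes6 promoter: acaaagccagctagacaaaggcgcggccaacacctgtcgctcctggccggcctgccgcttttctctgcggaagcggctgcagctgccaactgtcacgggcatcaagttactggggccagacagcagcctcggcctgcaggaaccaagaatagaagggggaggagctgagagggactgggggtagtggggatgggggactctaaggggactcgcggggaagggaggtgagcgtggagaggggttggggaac
In Lfng the TTCCCA begins 135 bases before the start, and CACGTG at 112 and TGGGAA at 108 overlap and print as 1 run of capitals. The Hey2 window holds TTCCCA at 207 bases and the Nrarp window CACGTG at 108 bases before the start. Neither window of Hes6 in the table, of which the upstream one is printed, holds either motif. The last 21 bases of the Lfng window and the last 18 of the Hey2 window lie in the annotated first exon of the gene. A match of 6 bases is a description of the letters and not a bound site.

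Cytoplasmic modulators divided. Dtx1, Dtx2 and Dtx3 rose, Dtx4 and Numbl fell and Numb was not called. Dtx4, a Deltex ubiquitin ligase, had the steepest fall, from 1268, 1216 and 1260.1 to 403, 546 and 383 (log2 change -1.51 ± 0.14 SE, adjusted p = 1.3e-05 by limma-trend), and its second islet library was the highest of its group at 1.39 times the mean of the other islet libraries. Dtx1 rose from 179, 234 and 222 to 399, 388 and 485 (log2 change 1.003 ± 0.16 SE, adjusted p = 0.00036 by limma-trend). Dtx3, the most abundant Deltex gene per kb in both groups, rose from 1304, 1448 and 1391 to 1962, 1840.4 and 2009 (log2 change 0.49 ± 0.08 SE, adjusted p = 0.00065 by limma-trend). These groups did not overlap for any of the Deltex genes. Dtx2 rose from 358, 438 and 390.0 to 492, 574 and 485 (log2 fold change 0.39, limma-trend adjusted p = 0.021), a call lost with scaling that left out the 20 most abundant genes (limma-trend adjusted p = 0.21) and without the first embryonic or the second islet library (limma-trend adjusted p = 0.073 and 0.10), against 0.00265 at the lowest of all settings. As shares of the Deltex sum, Dtx3 went from 61.6 ± 0.820% to 75.9 ± 2.20% and Dtx4 from 27.4 ± 1.65% to 8.59 ± 1.87% (exact permutation p = 0.1 and adjusted p = 0.118 for both).

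Numb, which sorts Notch away from the membrane in dividing cells, was at 889, 1044 and 993 and at 1017, 979.7 and 968. Its log2 fold change of 0.02 (SE 0.09, adjusted p = 0.85 by limma-trend) had an uncertain sign, and with scaling that left out the 20 most abundant genes of each group it was lower in the islets (-0.21, limma-trend adjusted p = 0.036, the lowest of all settings). That scaling moved the median of all tested genes to -0.26, so that Numb lay close to the typical gene in either case. Numbl, its relative, fell by 0.26 on the log2 scale, from 761, 761 and 760.4 to 636, 596 and 679 (SE 0.09, adjusted p = 0.034 by limma-trend). This call was lost with upper quartile scaling (limma-trend adjusted p = 0.17), with no filter (limma-trend adjusted p = 0.062) and without the first or the third embryonic or the first or the second islet library (limma-trend adjusted p between 0.071 and 0.15), while the lowest adjusted p of any setting was 0.0012. In the authors' deposited table, 29 members had an adjusted p under 0.05, 12 higher and 17 lower, where 53.3% of the genes with an adjusted p there did. Numbl was the gene called here and not there.

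The members also differed between the 3 embryonic libraries. The second embryonic library was the highest of its group for 18 of the 32 tested members (56.2%) and the lowest for 9 (28.1%), close to the 51.3 and 30.6% of all tested genes. It stood at 1.503 times the mean of the other embryonic libraries for Aph1a, 1.44 for Hes6, 1.35 for Mfng, 1.33 for Hes1, 1.29 for Psen2 and 1.28 for Lfng, and at 0.666 for Maml2, 0.736 for Hey2, 0.772 for Notch3 and 0.791 for Jag1, the highest and lowest ratios of the tested members. In the same library, the summed markers of alpha cells, beta cells, endocrine progenitors, duct and acinar cells were at 1.78, 1.68, 1.32, 1.32 and 1.298 times the mean of the other libraries, and those of mesenchyme and of pericytes without Notch3 at 0.915 and 0.845. Delta and PP, neural, cell division and erythroid sums were at 1.316, 1.18, 1.16 and 1.12, and endothelial and immune sums at 0.959 and 0.914. Sums follow their most abundant genes. Single markers went against their sum. Vim, Wt1, Barx1 and Des were highest in this library, as were the endothelial markers Pecam1, Tek, Emcn, Cldn5 and Esam. So was the immune marker Cd79a, at a low level. Lowest in it were the duct marker Sox9, Ppy of the delta and PP markers and the cell division marker Cenpf. The part of the mix of cells in the spread of the members was not tested.

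**Figure D4:**
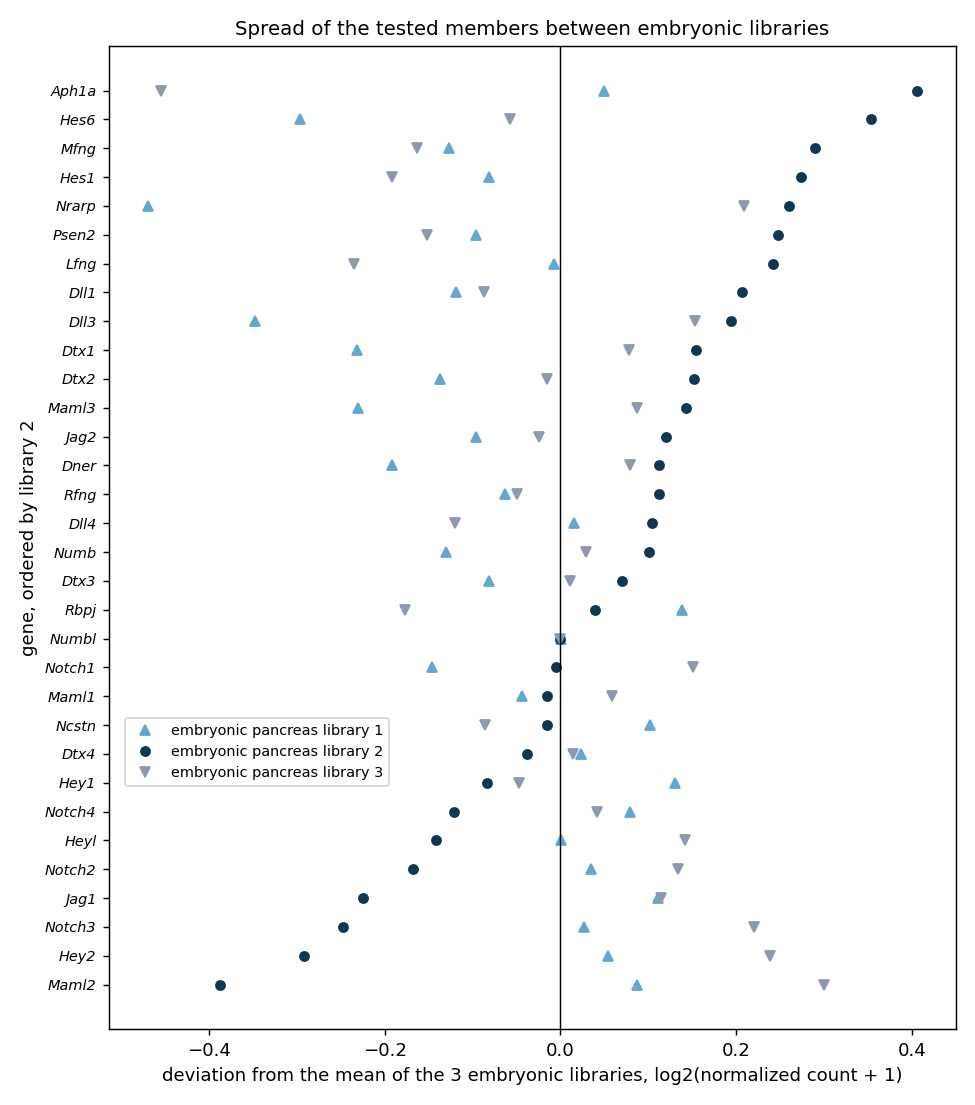
Deviation of each tested member from its mean over the 3 embryonic libraries, on the log2(normalized count + 1) scale, with 1 symbol per library and genes ordered by the second library. The second library is at the high end for Aph1a, Hes6, Mfng and Hes1 and at the low end for Maml2, Hey2, Notch3 and Jag1.

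Another 41 genes, called the other pathway genes here, serve the pathway or, as 6 pancreatic factors, are only tied to it. All were tested, of which 13 rose, 19 fell and 9 were not called, with a median log2 fold change of -0.24. Their counts, too, are to be read against the 72.8% of all tested genes called, 36.2% higher and 36.6% lower. Of 6 further cleavage genes, Psenen and Furin rose (log2 fold changes 0.69 and 0.58), and the metalloproteases Adam10 and Adam17, which make the cut before gamma-secretase, fell (-1.17 and -0.95). Adam10 stood at 6519, 4969.8 and 5788 and at 2586, 2608 and 2430.3. The metalloprotease genes therefore went down where the gamma-secretase genes that were called went up. Of 7 genes of receptor glycosylation and ligand endocytosis, the ubiquitin ligase genes Neurl1a and Mib2 rose (log2 fold changes 2.05 and 1.77), while Neurl1b, the fucosyltransferase gene Pofut1 and Dlk1 fell (-1.25, -0.73 and -7.28). Dlk1, an imprinted relative of the Delta ligands without a DSL domain, went from 10112 ± 521 to 65.9 ± 19.4.

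Of 5 receptor turnover genes, Fbxw7, the ubiquitin ligase subunit that marks the freed inner domain for destruction, had the steepest rise (1439 ± 90.9 to 3506 ± 153, log2 fold change 1.29) and Nedd4 the steepest fall (63767 ± 2853 to 21972 ± 852, log2 fold change -1.54). Of 17 cofactors of Rbpj and Hes proteins, 5 rose, 8 fell and 4 were not called. The acetyltransferase gene Kat2b had the steepest rise (log2 fold change 1.83) and the corepressor gene Ctbp2 the steepest fall (-1.30). Of the 4 Groucho-type corepressors, Tle1, Tle2 and Tle4 fell and Tle3 rose, the call on Tle4 being lost with quantile normalization and with upper quartile scaling (limma-trend adjusted p = 0.070 and 0.12, against 0.00033 at the lowest of all settings). Of 6 pancreatic factors tied to Notch, Neurod1 and Insm1 rose (log2 fold changes 3.52 and 3.09) and Rbpjl, Sox9, Ptf1a and Neurog3 fell (-6.91, -4.70, -3.66 and -3.21). Neurog3, the endocrine progenitor factor that Hes1 represses, stood at 958, 1419 and 1046 in the embryonic libraries and at 95.6, 117 and 157 in the islets, so Hes1 and its target were both lower in the islets. The calls on Ep300 and Kat2a were each lost under at least 1 other scaling. Calls were gained as lower in the islets by Mib1, Crebbp and Poglut1 with quantile normalization (limma-trend adjusted p = 0.00020, 0.0081 and 0.036) and with scaling without the 20 most abundant genes (limma-trend adjusted p = 0.00056, 0.017 and 0.018), and as higher by Ctbp1 with upper quartile scaling (limma-trend adjusted p = 0.0039). Mib1 was also called lower by DESeq2 (adjusted p = 0.043).

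**Figure D5:**
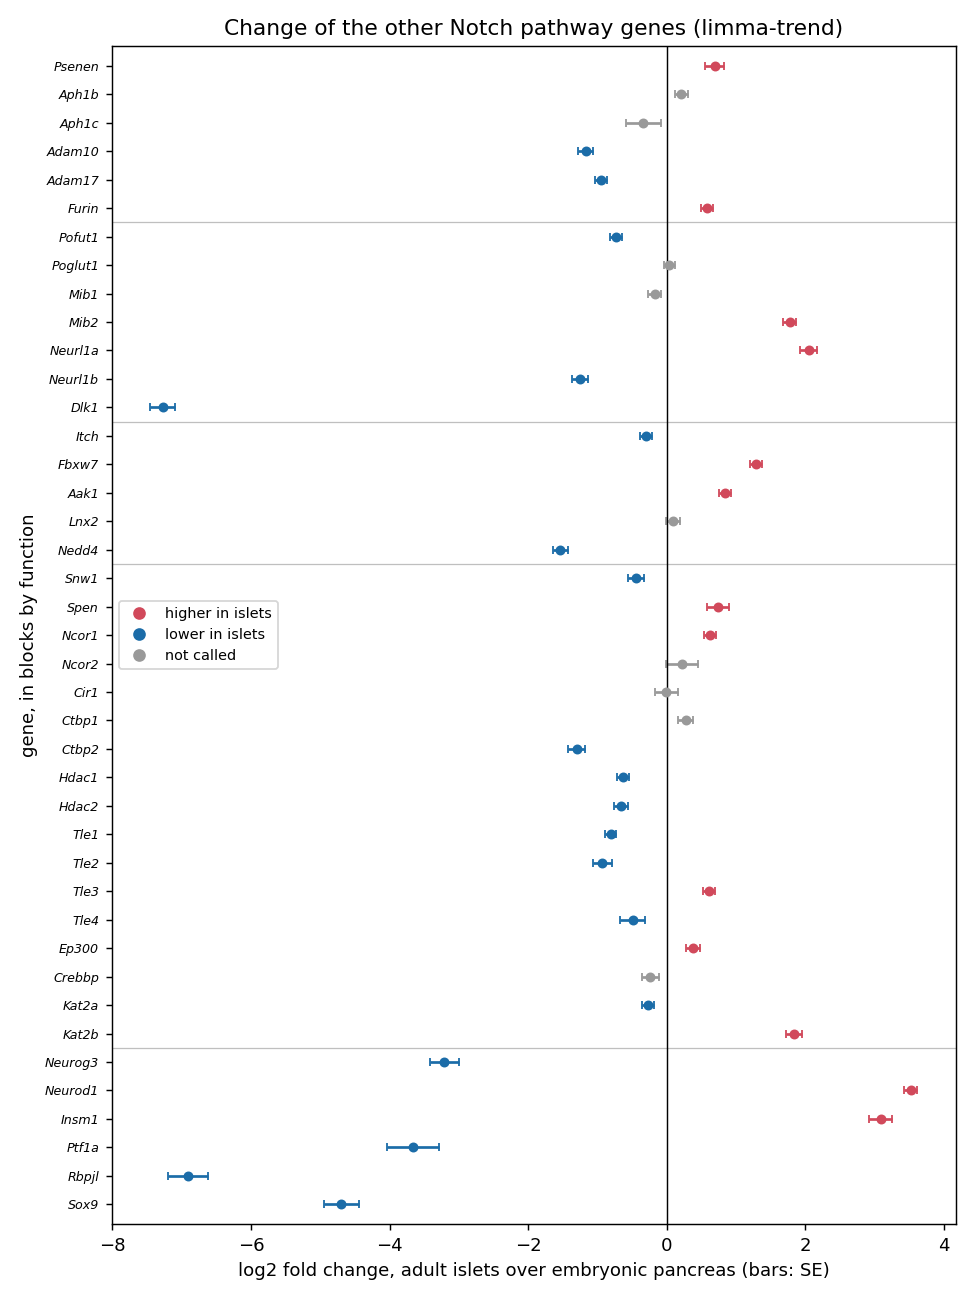
Log2 fold change, islets over embryonic pancreas, of the 41 other pathway genes with standard errors as bars and colour for the limma-trend call. Blocks run by function, the pancreatic factors tied to Notch among them. Dlk1 at -7.28 and Rbpjl at -6.91 lie at the low end and Neurod1 at 3.52 at the high end.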

How the data were processed

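RNA sequencing was done on 3 libraries of whole embryonic pancreas and 3 of adult islets of wild-type mice. The labels' protocols name RNeasy Micro columns and a TruSeq RNA kit, and do not state strand. Per the submitters' processing notes, the tools were TopHat 1.3.2, Cufflinks 1.2.1, CASAVA 1.8.2 and DESeq2, on mm10. Which counter and gene models served is not given in the sources used here. Per the file headers, each deposited library column is a normalized signal, that is, counts divided by a DESeq2 size factor. The same deposited table gives the authors' mean signal, test score, p-value, adjusted p-value and log2 fold change, of which only the adjusted p-value and the log2 fold change were used. Entries that name no gene held between 40.7 and 54.6% of a library's reads and were left out; the entry for low-quality alignments was 0 in the third embryonic library and between 1264897 and 2083120 reads in the others.

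In each library 100% of the values were whole multiples of 1 step within 0.01 reads, which gave back the reads. For the second islet library, whose step is almost 1, the step by itself does not separate recovered reads from rounded values. The test was limma-trend (limma 3.58.1, R 4.3.3) on log2(value + 1) for genes reaching 10 normalized counts in 3 or more libraries, with Benjamini-Hochberg adjustment over 21653 genes. The test was run on counts simulated from the embryonic means, with a single dispersion and few changed genes. Such a run does not cover the scaling between unlike tissues. Counting intervals are exact, at 95%, and cover counting error only. Exon lengths are unions of exons in GENCODE M21 (GRCm38, the same build as mm10). Shares are normalized counts per kb of exon within a library. Promoter windows came from RefSeq's table for GRCm38.p6. A search of the proteins for their C-terminal motif was planned and not run. A planned share within 1 family, and a few genes of the pathway and marker lists, are not reported here. Within a role, the 2 steepest rises and falls and the most abundant genes were to be given in every library; of each group of other pathway genes, the steepest rise and fall. The members and all lists were chosen with earlier results of these data known. Alternatives were quantile normalization, upper quartile scaling, a scaling that left out each group's 20 most abundant genes, a pseudocount of 0.1 or 5, testing every gene, a minimum of 50, a replicate block, edgeR 4.0.16 and DESeq2 1.42.0 on recovered reads, other exon lengths and leaving out each library. Each library counted as 1 replicate. Within-group pairs of libraries differed by more than sampling noise (chi-square per gene between 17.5 and 57.2), which does not show that they came from different animals. Python 3.11.15 with SciPy 1.17.1 and pandas 2.3.3 was used for the tables.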

Additional observations from a re-analysis of the deposited data

How the results depend on the processing

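The count of 30 called members was between 29 and 30 under the 10 settings other than leaving out a library, edgeR and DESeq2 on recovered reads giving 30 each, and between 26 and 31 with single libraries left out. Of 511 values of the log2 fold change of 32 members under alternatives, 483 kept their direction and their side of the threshold, 20 lost the call (Rbpj, Hes6, Numbl and Dtx2), 3 gained it in the same direction (Aph1a) and 5 changed sign. All 5 belong to Numb, at -0.067 with quantile normalization, -0.21 with scaling without the 20 most abundant genes, -0.013 with edgeR, -0.0027 with DESeq2 and between -0.044 (without the first embryonic library) and 0.07 when libraries were left out singly. With the scaling without the 20 most abundant genes Numb also gained a call, as lower in the islets (limma-trend adjusted p = 0.036). Deviations of libraries with the same replicate number correlated at 0.04, 0.08 and 0.01 across genes, and those with different numbers at between -0.08 and 0.05. With 3 libraries of each of 2 unlike tissues, this cannot exclude a shared preparation. With the number as a replicate block, 30 members were called, 13 higher and 17 lower, with Aph1a gained (limma-trend adjusted p = 0.028) and Numbl lost (limma-trend adjusted p = 0.072), and 15612 of all genes in place of 15770. The drop in the share of Hes1 was -16.8 percentage points in place of -25.9 with counts not divided by length, and that of Lfng -42.3 in place of -46.5 with the longest transcript; the lengths alone differ there. Depth limits Dll3, Dlk2, Hes5 and Hes7, which rest on few reads in at least 1 group.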
